A study of Homo sapiens with 50 samples.

Results

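Collagen chains were followed in differentiated HepaRG cells exposed to 3 herbicides. The chains were all genes of the deposited expression table named COL, a type number, A and a chain number, and 44 of the 79578 genes and loci in the table met that rule. They comprised 11 fibrillar chains, 6 basement membrane chains, 3 short chains, 5 beaded-filament chains, 10 fibril-associated chains, 1 anchoring-fibril chain, 2 multiplexins, 4 transmembrane chains and 2 others. HepaRG is a single human liver line that differentiates into hepatocyte-like and biliary-like cells, so all groups share one genetic background. Total RNA was sequenced after exposure from day 8 to day 14 of culture, in mesotrione at 0.1 uM, 10 uM or 1 mM, in isoxaflutole at the same 3 concentrations, in quizalofop-p-ethyl at the same 3 concentrations, and in control cultures. All 10 groups, controls included, received medium with 2% fetal bovine serum and 1% DMSO, and each had 5 libraries. The protocols describe collagen-coated wells and do not say which plate format gave the RNA. Whether replicate libraries stem from different cultures is not said in the labels, and their spread, which all p-values rest on, may be technical.

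Collagens are secreted proteins in which 3 chains wind into a triple helix. Fibrillar collagens assemble into the cross-linked fibres that accumulate in liver scarring, type IV chains form the sheet-like network of basement membranes, short-chain collagens form open lattices, and fibril-associated collagens decorate the surface of fibres. In liver the fibrillar chains are known mainly from hepatic stellate cells and portal fibroblasts, whereas type XVIII collagen is known as a product of hepatocytes. Many trimers need chains from different genes, so the level of a partner bears on what a culture could assemble.

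One library of quizalofop-p-ethyl at 10 uM (replicate 5) stood apart and was left out. It had 6783 genes at 1 FPKM or more, against 17016 to 20344 in the other 49, and its COL18A1 level was 7.16 FPKM. FPKM are counts of fragments scaled to transcript length and to the mapped fragments of the library. The summed FPKM of a library ran between 541874 and 801657 in the 49, and the fragments behind it, estimated from the FPKM step of 1 fragment, between 7180000 and 34240000. Of the marker lists, 9 of 9 hepatocyte, 5 of 7 biliary, 7 of 10 stellate and fibroblast, 1 of 7 endothelial (KDR) and 3 of 5 leukocyte markers (CD68, CD14 and LYZ) passed the filter. In control, ALB averaged 9420 FPKM, LUM 27.9 and DCN 4.67, PDGFRA, DES and THY1 averaged under 1 FPKM, and CDH5, CLEC4G and CD3E were listed at 0.

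Of the 44 chains, 18 reached 1 FPKM in at least 5 of the 49 libraries and were tested. These were 5 fibrillar chains, all 6 type IV chains, COL8A1 among the short chains, COL6A1, COL7A1, COL12A1, COL16A1, COL21A1 and COL18A1. The other 26 chains did not pass, and 23 of them never reached 1 FPKM in any library. In control cultures the highest levels were those of COL18A1, the basement membrane multiplexin that releases endostatin (65.8 ± 13.05 FPKM, SD, n = 5), COL12A1, a fibril-associated chain (40.5 ± 7.12), COL5A1, which starts and limits fibre growth (30.2 ± 6.94), COL4A2 (28.5 ± 3.24), COL4A5 (24.5 ± 3.94) and COL3A1, the only chain of type III collagen (17.7 ± 2.95). COL6A1 (14.4 ± 0.360), COL4A6 (11.2 ± 0.830), COL4A1 (9.80 ± 2.03) and COL8A1 (6.48 ± 1.504) followed, and COL1A1 averaged 3.78 ± 1.05 FPKM. Some of these sums rest largely on short transcripts. The leading COL6A1 transcript had 6 exons and 2358 bases and carried 52.9% of the FPKM of the chain over the 49 libraries. That of COL12A1 had 3135 bases and 47.5%, and that of COL8A1 had 659 bases and 37.5%.

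Partner chains were often missing. COL1A2, which joins COL1A1 in the usual type I trimer, reached 0.0610 FPKM at most in any of the 49 libraries. COL6A2 and COL6A3, which build beaded filaments with COL6A1, averaged 0.0517 and 0.384 FPKM in control. COL5A2, the usual partner of COL5A1, averaged 0.741 FPKM, and COL8A2 averaged 0.0204 FPKM. In the type IV group the pairs of COL4A1 with COL4A2 and of COL4A5 with COL4A6 were each present, and COL4A2 stood at 2.96 ± 0.326 times COL4A1 and COL4A5 at 2.20 ± 0.440 times COL4A6 in control libraries. In the third pair COL4A4 averaged 2.14 ± 0.384 FPKM, while COL4A3 averaged 0.726 ± 0.238 FPKM and reached 1 FPKM in no control library. The transmembrane chains COL13A1, COL17A1, COL23A1 and COL25A1 all stayed under 1 FPKM throughout.

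Summed over all 44 chains, collagen FPKM were 105, 130 and 164 (lowest, median and highest library) with quizalofop-p-ethyl at 1 mM, against 232, 275 and 302 in control. The groups did not overlap. With isoxaflutole at 1 mM the sum ran between 245 and 327, and with mesotrione at 1 mM between 209 and 294, both overlapping control. The fibrillar chains together averaged 34.4 ± 7.71 FPKM with mesotrione, 43.5 ± 11.6 with isoxaflutole and 25.3 ± 5.26 with quizalofop-p-ethyl at 1 mM, against 59.7 ± 9.56 in control (SD, n = 5 each), and the 6 type IV chains averaged 74.2 ± 15.3, 88.8 ± 11.8 and 38.7 ± 8.04, against 76.9 ± 8.03. These sums are descriptions and carry no test. In bulk RNA, fewer cells of a type and less RNA per cell cannot be told apart.

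**Figure D1:**
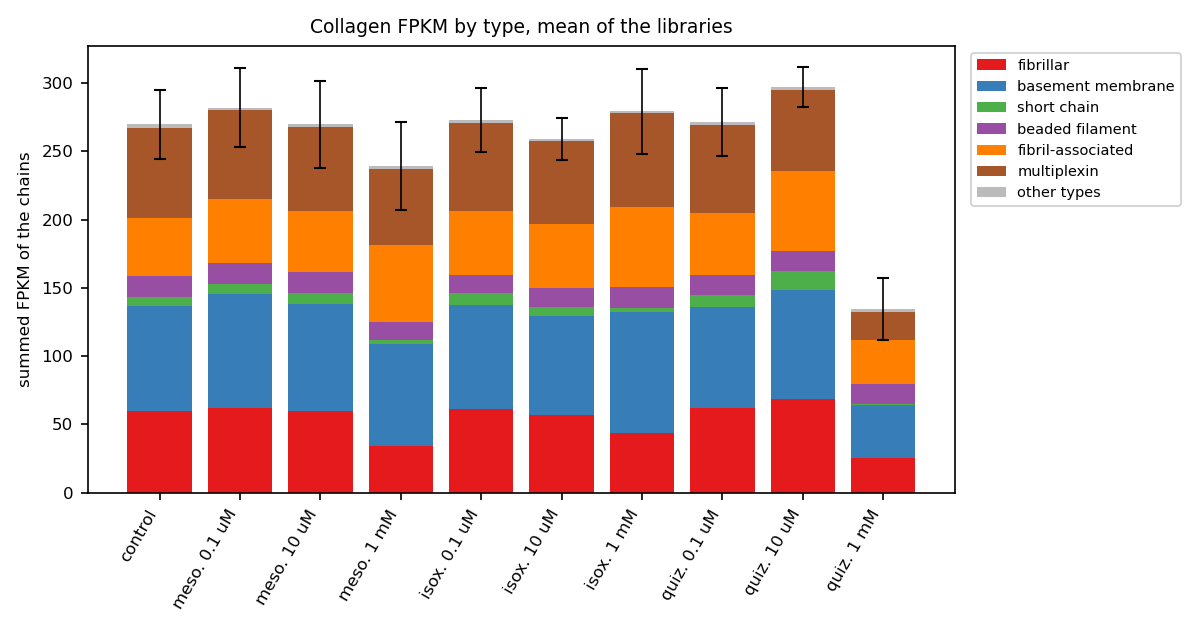
Stacked bars give the mean FPKM of each collagen type, summed over its chains, in control and in the 3 concentrations of mesotrione (meso.), isoxaflutole (isox.) and quizalofop-p-ethyl (quiz.), with the SD of the whole sum over 5 libraries (4 for quizalofop-p-ethyl at 10 uM). The whole bar averages 135 FPKM with quizalofop-p-ethyl at 1 mM and 259 to 297 FPKM in control, isoxaflutole at 1 mM and all groups at 0.1 and 10 uM.

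The test was limma on log2(FPKM + 1), fitted to all 24248 genes past the same filter, with Benjamini-Hochberg adjustment and a threshold of 0.05. Fold changes are on that scale, which understates the change of low genes. A test of any difference among the 10 groups called 13 of the 18 chains, against 29.2% of all genes tested. COL1A1, COL27A1, COL4A3, COL6A1 and COL7A1 were not called.

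**Figure D2:**
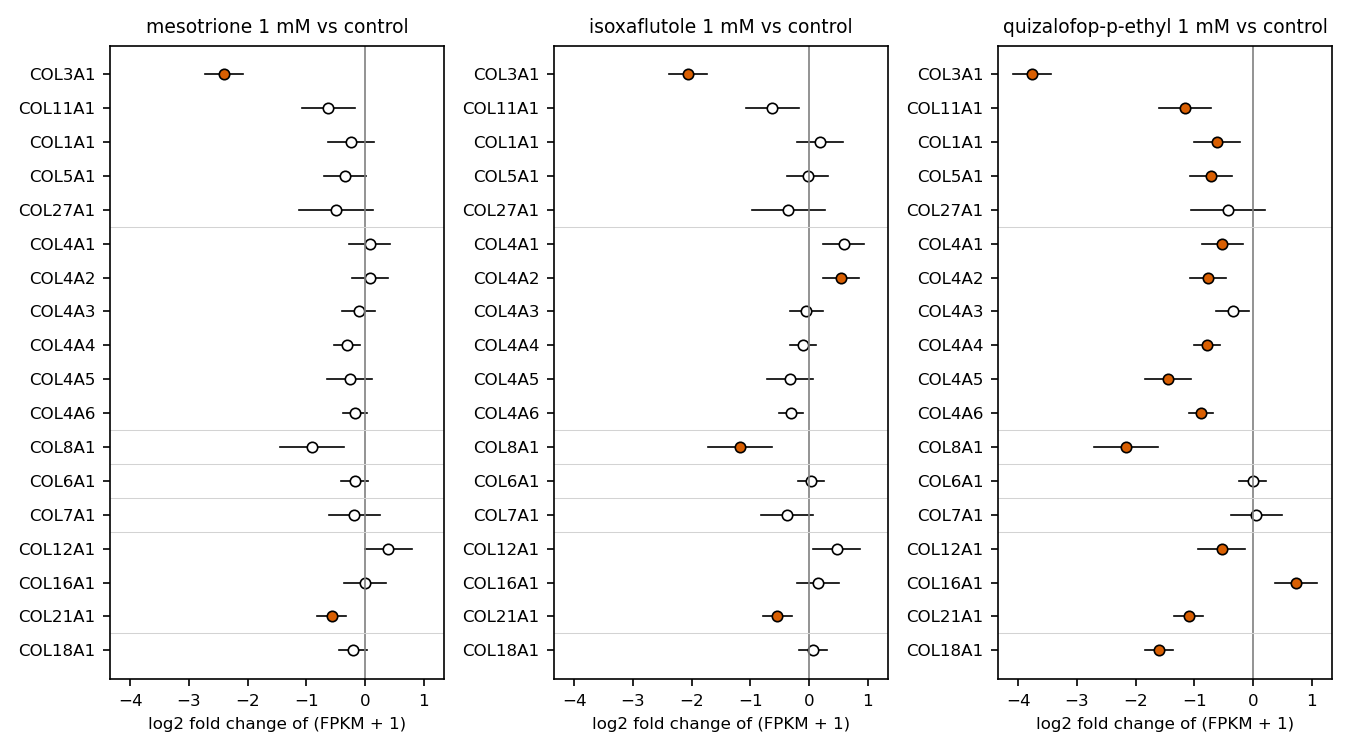
Points give the log2 fold change of (FPKM + 1) at 1 mM over control for the 18 tested chains, grouped by type with grey lines, and bars the 95% confidence interval. Filled points are past the adjusted threshold. COL3A1 and COL21A1 are filled on the lower side in all 3 panels, and most filled points lie in the quizalofop-p-ethyl panel.

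COL3A1 fell with all 3 compounds at 1 mM. The gene lies on chromosome 2, from 188974320 to 189012746 on the plus strand of GRCh38, and 1 full-length transcript carried 97.0% of its FPKM. It had 1.31, 3.43, 2.59, 3.505 and 2.28 FPKM with mesotrione, against 16.6, 19.0, 19.9, 20.0 and 13.1 FPKM in control. It had 3.05, 2.50, 4.18, 3.39 and 4.24 FPKM with isoxaflutole. It had 0.656, 0.339, 0.353, 0.568 and 0.0108 FPKM with quizalofop-p-ethyl. Every treated library lay below every control library, and the quizalofop-p-ethyl libraries lay below those of both other compounds. The log2 fold change was -2.40 (SE 0.16, adjusted p = 6.82e-14) with mesotrione, -2.07 (SE 0.16, adjusted p = 1.33e-12) with isoxaflutole and -3.76 (SE 0.16, adjusted p = 9.29e-23) with quizalofop-p-ethyl. At the lower concentrations it stayed between 17.5 and 22.3 FPKM on average.

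COL21A1, a fibril-associated chain described in blood vessel walls, was the other chain that fell with all 3. Its gene lies on chromosome 6, from 56056590 to 56394094. It had 0.700, 0.922, 0.868, 0.410 and 0.781 FPKM with mesotrione, against 1.27, 2.02, 1.81, 1.23 and 1.54 FPKM in control, 0.873, 0.958, 0.668, 0.982 and 0.385 FPKM with isoxaflutole, and 0.322, 0.0791, 0.327, 0.181 and 0.0960 FPKM with quizalofop-p-ethyl. None of these groups overlapped control, although all lie at low levels. The log2 fold changes were -0.57 (SE 0.12, adjusted p = 0.00775), -0.54 (SE 0.12, adjusted p = 0.00623) and -1.10 (SE 0.12, adjusted p = 5.06e-10) in that order. Tested by its leading transcript alone, COL21A1 was not called with mesotrione (adjusted p = 0.388) or isoxaflutole (adjusted p = 0.502), and both calls also ended with all 50 libraries (0.277 and 0.197) and with the compared groups alone (0.136 and 0.112).

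With mesotrione at 1 mM these 2 were the chains called, both lower, against 0.701% of all genes called lower and 0.177% called higher. The median log2 fold change of the 18 chains was -0.22, against -0.01 over all genes tested. COL8A1, a short chain of vessel walls and the corneal membrane, was 3.26 ± 1.73 FPKM with mesotrione and 6.48 ± 1.504 FPKM in control (adjusted p = 0.114). COL11A1, a minor fibrillar chain known from cartilage, was 1.02 ± 0.357 FPKM with mesotrione and 2.22 ± 1.16 FPKM in control (adjusted p = 0.243). No type IV chain was called. Groups lay below control without overlap for 4 chains, COL3A1, COL21A1, COL4A4 and COL6A1, against 2.08% of all genes. Set against mesotrione's own lower concentrations, which use no control library, 5 chains fell, against 1.29% of all genes, and these were COL3A1, COL8A1, COL11A1, COL21A1 and COL4A4.

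**Figure D3:**
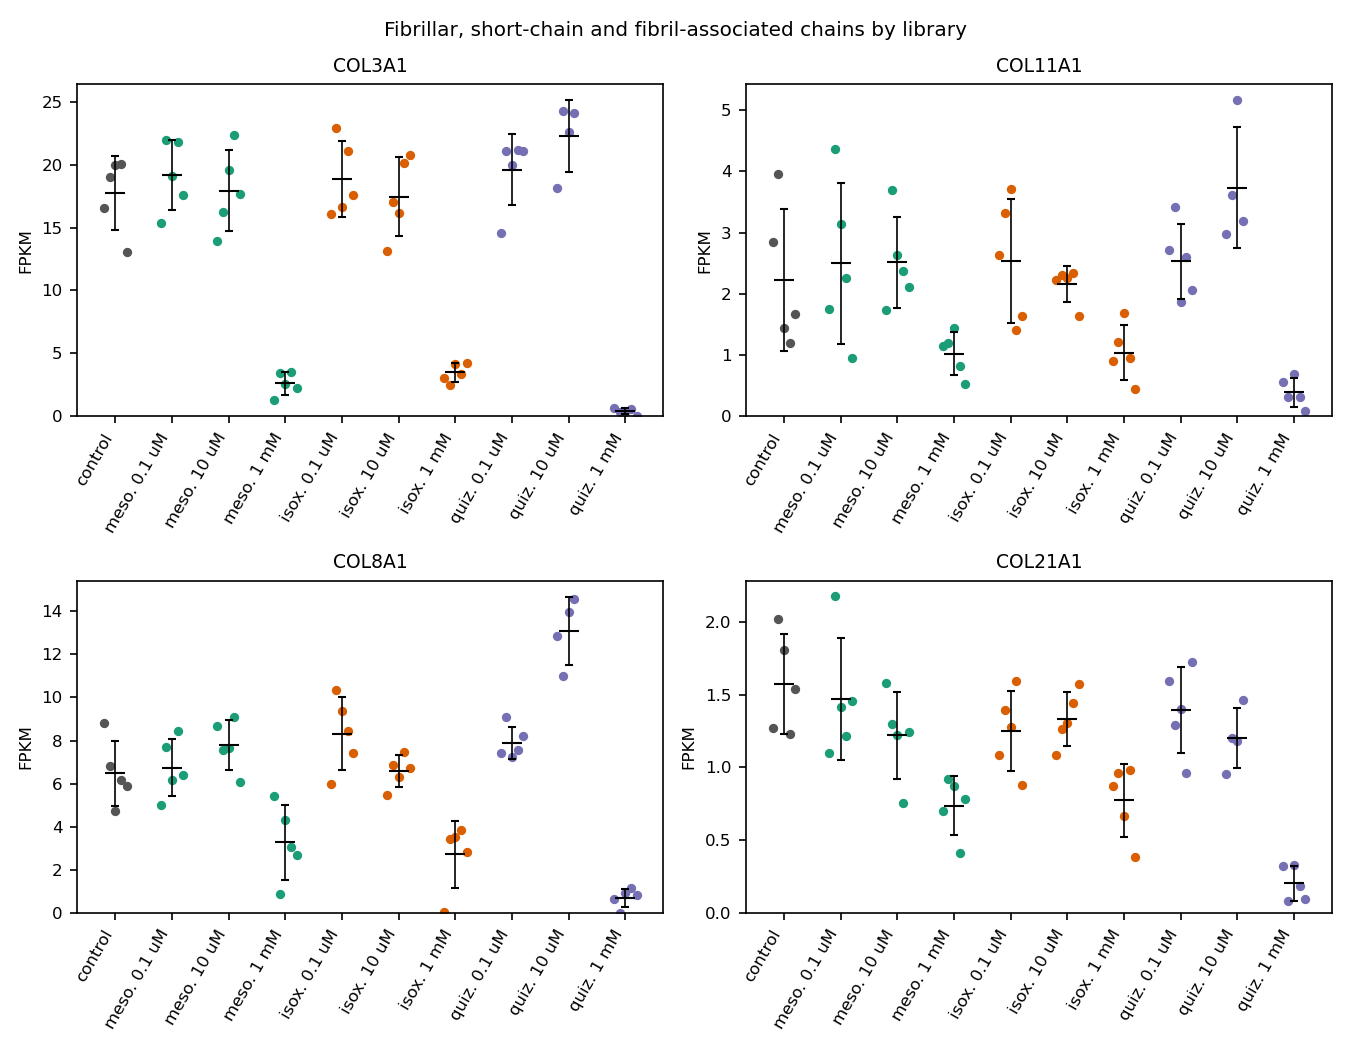
FPKM of COL3A1, COL11A1, COL8A1 and COL21A1 in each library, by group (abbreviated as in the plot of collagen types), with the mean and SD as a black bar. COL3A1 lies between 13.1 and 24.3 FPKM in control and at 0.1 and 10 uM, and at 4.24 FPKM or lower in all libraries at 1 mM.

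Isoxaflutole at 1 mM lowered COL3A1, COL21A1 and COL8A1, and raised COL4A2, 1 of the chains of the ubiquitous basement membrane trimer. Called lower were 3 of 18 chains, against 1.26% of all genes, and called higher was 1 of 18, against 1.15%. These 4 chains were also those whose groups did not overlap, against 2.40% of all genes below control and 2.45% above. The median log2 fold change of the 18 chains was -0.07, against -0.01 over all genes tested.

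COL8A1 lies on chromosome 3, from 99638475 to 99799226. It had 0.0284, 3.42, 3.49, 3.83 and 2.80 FPKM with isoxaflutole, against 8.81, 6.80, 4.72, 6.18 and 5.90 FPKM in control. The groups did not overlap, and 1 isoxaflutole library lay far below its group. The log2 fold change was -1.17 (SE 0.27, adjusted p = 0.00864). Without that library, isoxaflutole replicate 1, it was -0.75 and the call ended (adjusted p = 0.0539). It also ended with a pseudocount of 0.1 (adjusted p = 0.0734), the compared groups alone (0.223), all 50 libraries (0.447) and the leading transcript (0.584), which makes 5 of 18 alternatives.

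COL4A2 lies on chromosome 13, from 110305812 to 110513027. It had 55.3, 42.9, 40.96, 39.0 and 33.3 FPKM with isoxaflutole, against 32.7, 28.98, 24.4, 26.3 and 30.1 FPKM in control, so the lowest treated library lay just above the highest control. The log2 fold change was 0.54 (SE 0.15, adjusted p = 0.0423). The call ended when isoxaflutole replicate 1, 2, 3 or 4 or control replicate 2, 3, 4 or 5 was left out, with log2 fold changes of 0.44 to 0.57 and adjusted p of 0.0558 to 0.165 (limma). It also ended without the filter (adjusted p = 0.0994), with the compared groups fitted alone (0.0746) and with all 50 libraries (0.886), so 11 of 18 alternatives ended it. Its partner COL4A1 had 21.7, 16.2, 15.1, 14.5 and 9.91 FPKM with isoxaflutole, against 12.1, 10.8, 7.51, 7.80 and 10.8 FPKM in control, with a log2 fold change of 0.59 (SE 0.17, adjusted p = 0.0589). It was called when isoxaflutole replicate 5 or control replicate 1 was left out. The ratio of COL4A2 to COL4A1 within a library was 2.79 ± 0.321 with isoxaflutole and 2.96 ± 0.326 in control. Against isoxaflutole's own lower concentrations, both COL4A1 (15.5 against 10.2 FPKM, adjusted p = 0.0307) and COL4A2 (42.3 against 27.6 FPKM, adjusted p = 0.00331) were higher. In that comparison 2 chains were called higher, against 2.23% of all genes, and 4 lower (COL3A1, COL8A1, COL11A1 and COL21A1), against 2.35%.

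**Figure D4:**
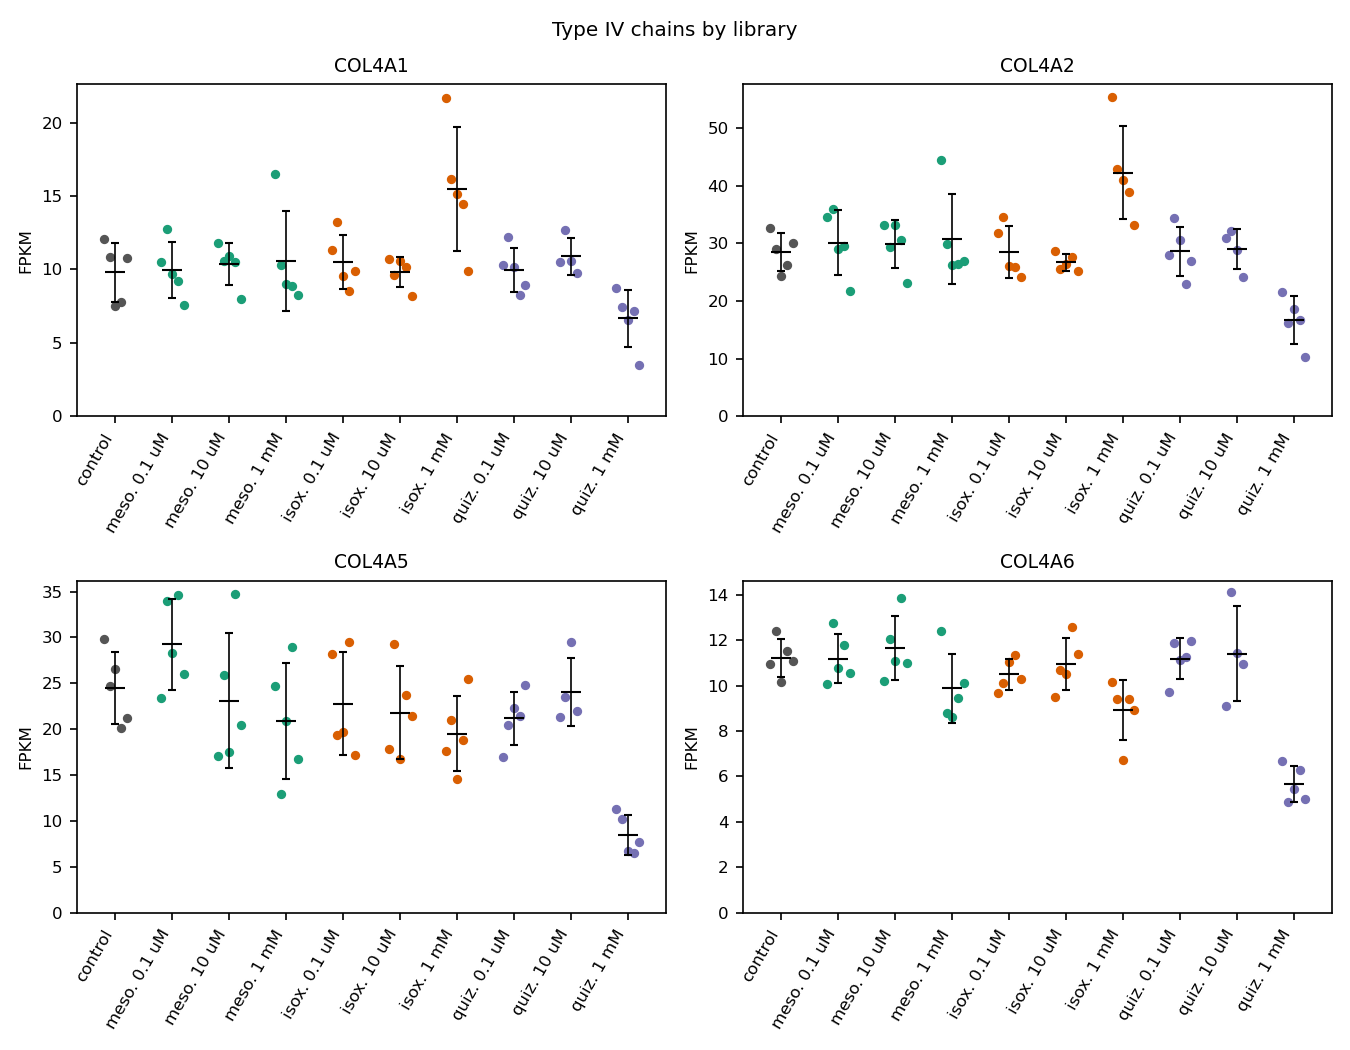
FPKM of COL4A1, COL4A2, COL4A5 and COL4A6 in each library, by group (abbreviated as in the plot of collagen types), with the mean and SD as a black bar. COL4A1 and COL4A2 have their highest means, 15.5 and 42.3 FPKM, with isoxaflutole at 1 mM, and all 4 chains have their lowest with quizalofop-p-ethyl at 1 mM.

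Quizalofop-p-ethyl at 1 mM lowered 13 of the 18 chains and raised 1. The background is high, since 19.7% of all genes tested were called lower and 13% higher. The median log2 fold change of the 18 chains was -0.74, against -0.08 over all genes. Lower were 4 of 5 fibrillar chains, 5 of 6 type IV chains, COL8A1, COL18A1, COL12A1 and COL21A1. Groups lay below control without overlap for 10 chains, against 14.8% of all genes. COL6A1 had 14.5 ± 2.26 FPKM with quizalofop-p-ethyl and 14.4 ± 0.360 FPKM in control (log2 fold change -0.01, 95% interval -0.23 to 0.22), and COL7A1, the anchoring-fibril chain, had 1.82 ± 0.577 FPKM and 1.70 ± 0.494 FPKM in the same order.

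Among the fibrillar chains, COL11A1 had 0.555, 0.305, 0.684, 0.316 and 0.0866 FPKM with quizalofop-p-ethyl, against 2.85, 3.96, 1.44, 1.20 and 1.66 FPKM in control (log2 fold change -1.16, SE 0.22, adjusted p = 3.84e-05). COL5A1 had 22.8, 14.3, 19.1, 16.1 and 16.8 FPKM with quizalofop-p-ethyl, against 34.6, 35.7, 18.8, 28.5 and 33.3 FPKM in control (log2 fold change -0.71, SE 0.18, adjusted p = 0.00125). The COL5A1 groups overlapped through 1 low control library, and with all 50 libraries the call ended (adjusted p = 0.0586). Of its transcripts, ENST00000618395 averaged 1.44 FPKM with quizalofop-p-ethyl and 10.2 FPKM in control (adjusted p = 5.70e-10), while ENST00000371817 averaged 13.6 and 17.5 FPKM (adjusted p = 0.405), and the split between transcripts that share most exons is an estimate of the assembler. COL1A1 had 2.50, 2.52, 2.32, 1.07 and 2.26 FPKM with quizalofop-p-ethyl, against 4.25, 5.03, 2.65, 4.25 and 2.73 FPKM in control (log2 fold change -0.61, SE 0.20, adjusted p = 0.0132). The COL1A1 call ended without quizalofop-p-ethyl replicate 4 (adjusted p = 0.0711) or control replicate 2 (adjusted p = 0.0520), with all 50 libraries (0.0995) and for the leading transcript alone (0.0824). COL27A1 was not called, with 3.52 ± 2.57 FPKM with quizalofop-p-ethyl and 4.67 ± 2.07 FPKM in control.

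Among the type IV chains the fall was largest in COL4A5, the chain affected in X-linked Alport syndrome, which had 11.3, 10.2, 6.68, 6.51 and 7.68 FPKM with quizalofop-p-ethyl, against 29.8, 24.8, 26.6, 20.2 and 21.2 FPKM in control (log2 fold change -1.44, SE 0.19, adjusted p = 4.08e-08). COL4A6, its neighbour on the X chromosome, had 6.68, 4.88, 5.44, 6.30 and 5.00 FPKM with quizalofop-p-ethyl, against 10.96, 12.4, 10.1, 11.5 and 11.1 FPKM in control (log2 fold change -0.88, SE 0.10, adjusted p = 1.50e-09). Neither pair of groups overlapped. COL4A2 had 21.6, 16.3, 18.6, 16.7 and 10.3 FPKM with quizalofop-p-ethyl (log2 fold change -0.77, SE 0.15, adjusted p = 6.94e-05), all under the lowest control library. With all 50 libraries its adjusted p was 0.0532. COL4A1 had 8.71, 7.41, 6.54, 7.14 and 3.51 FPKM with quizalofop-p-ethyl, overlapping control (log2 fold change -0.52, SE 0.17, adjusted p = 0.0183). Its call ended without quizalofop-p-ethyl replicate 5 (log2 fold change -0.34, adjusted p = 0.130) or control replicate 1 (adjusted p = 0.0629), with all 50 libraries (0.216) and with the compared groups alone (0.0862). COL4A4, whose trimer with COL4A3 and COL4A5 is known from kidney, had 0.907, 0.869, 0.891, 0.706 and 0.690 FPKM with quizalofop-p-ethyl, against 2.40, 2.68, 1.83, 1.82 and 1.96 FPKM in control (log2 fold change -0.79, SE 0.11, adjusted p = 1.77e-07). COL4A3 averaged 0.374 ± 0.285 FPKM with quizalofop-p-ethyl and 0.726 ± 0.238 FPKM in control (adjusted p = 0.0535).

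COL4A5 and COL4A6 lie head to head on chromosome X, COL4A5 on the plus strand from 108439844 to 108697545 and COL4A6 on the minus strand from 108155607 to 108439497 in the deposited table. In RefSeq the COL4A5 start at 108439838 lies 380 and 1416 bases from the 2 starts of COL4A6. The 250 bases before that COL4A5 start are shown because they lie between the 2 genes that fell together. Capitals in it, and in the COL18A1 stretches, mark matches on either strand to the letters of the TATA box (TATAAA). They also mark those of the CCAAT box (CCAAT), the GC box (GGGCGG) and, with N for any base, the AP-1 site (TGANTCA).
COL4A5 (chrX:108439588-108439837, GRCh38.p14, plus strand): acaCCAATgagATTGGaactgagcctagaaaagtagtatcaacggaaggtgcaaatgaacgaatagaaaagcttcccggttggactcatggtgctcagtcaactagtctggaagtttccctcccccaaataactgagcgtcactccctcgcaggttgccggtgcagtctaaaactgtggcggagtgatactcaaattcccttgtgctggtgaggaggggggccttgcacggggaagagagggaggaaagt
It holds CCAAT 2 times, once on each strand, and none of the other motifs. CCAAT is present in 32% of the 35116 RefSeq promoters of that length, TATAAA in 10.7%, GGGCGG in 42.6% and TGANTCA in 6.57%. COL4A1 and COL4A2 also lie head to head, with RefSeq starts 127 bases apart. So do COL4A4, on the minus strand of chromosome 2 up to 227164113, and COL4A3, on the plus strand from 227164565, in the deposited table.

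COL8A1 had 0.619, 0, 0.896, 1.13 and 0.818 FPKM with quizalofop-p-ethyl, against 8.81, 6.80, 4.72, 6.18 and 5.90 FPKM in control, with no overlap (log2 fold change -2.17, SE 0.27, adjusted p = 1.08e-08). Among the fibril-associated chains, COL12A1 had 44.8, 26.3, 37.7, 28.4 and 11.98 FPKM with quizalofop-p-ethyl, against 42.6, 43.7, 37.7, 29.9 and 48.7 FPKM in control, and the groups overlapped (log2 fold change -0.53, SE 0.20, adjusted p = 0.0353). That call ended without quizalofop-p-ethyl replicate 2 or 5 or control replicate 1, 2 or 5, and without quizalofop-p-ethyl replicate 5 the log2 fold change was -0.25 (adjusted p = 0.292). In all 9 of 18 alternatives ended it, with adjusted p up to 0.413. COL16A1, found beside fibres and in microfibrils, was the chain that rose, with 0.742, 2.16, 1.64, 1.20 and 1.53 FPKM with quizalofop-p-ethyl, against 0.318, 0.864, 0.163, 0.548 and 0.465 FPKM in control (log2 fold change 0.73, SE 0.18, adjusted p = 0.00110), and 1 treated library overlapped control. COL16A1 passed the filter on 7 libraries, mostly of that group, so its passing and its direction are linked.

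COL18A1 had 20.7, 22.8, 21.2, 19.3 and 19.1 FPKM with quizalofop-p-ethyl, against 78.2, 51.5, 52.6, 77.6 and 68.9 FPKM in control (log2 fold change -1.61, SE 0.12, adjusted p = 4.32e-15). The treated libraries were tightly grouped and all far below control. With mesotrione it averaged 56.2 ± 3.58 FPKM and with isoxaflutole 68.6 ± 6.78 FPKM, against 65.8 ± 13.05 FPKM in control (adjusted p = 0.632 and 0.866). The gene lies on chromosome 21, from 45405137 to 45513720 on the plus strand, and its transcripts begin at 2 promoters. In human and mouse the downstream promoter is known to make the longer proteins that are abundant in liver.

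Transcripts that begin at the downstream start (ENST00000355480 at 45455489 and ENST00000359759 at 45455531) summed to 13.03, 11.8, 13.5, 5.72 and 2.99 FPKM with quizalofop-p-ethyl, against 60.1, 33.8, 32.3, 64.1 and 59.4 FPKM in control, with no overlap. The transcript that begins at the upstream start (ENST00000400337 at 45405137) had 6.16, 9.02, 4.72, 12.1 and 14.2 FPKM with quizalofop-p-ethyl, against 15.9, 14.96, 17.3, 10.2 and 6.46 FPKM in control, and the groups overlapped. The downstream start gave 49.6% ± 24.1 of the FPKM of both with quizalofop-p-ethyl and 78.0% ± 10.7 in control (SD, n = 5 each), with overlapping ranges of 17.4% to 74.0% and 65.1% to 90.2%. Tested one by one among the collagen transcripts, ENST00000355480 fell with quizalofop-p-ethyl (log2 fold change -2.49, SE 0.59, adjusted p = 0.000736). ENST00000400337 (log2 fold change -0.47, SE 0.44, adjusted p = 0.469) and ENST00000359759 (-1.13, SE 0.56, adjusted p = 0.121) were not called, and the difference between the 2 starts was not tested. The starts, and the COL5A1 transcripts above, were singled out after their values were seen, and reads in shared exons cannot be assigned to one transcript with certainty. Adding the unnamed assembled transcripts of the locus gave 5.34 to 18.3 FPKM with quizalofop-p-ethyl and 39.5 to 73.2 FPKM in control for the downstream start, and 9.12 to 18.3 and 12.2 to 31.4 FPKM for the upstream start. The 200 bases before each start are shown because the 2 promoters differ in make-up.
COL18A1 upstream start (chr21:45404937-45405136, GRCh38.p14, plus strand): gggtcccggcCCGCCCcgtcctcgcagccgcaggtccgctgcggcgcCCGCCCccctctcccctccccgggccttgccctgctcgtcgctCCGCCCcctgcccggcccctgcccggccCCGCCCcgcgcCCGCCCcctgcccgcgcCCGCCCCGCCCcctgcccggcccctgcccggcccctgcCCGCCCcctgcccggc
COL18A1 downstream start (chr21:45455289-45455488, GRCh38.p14, plus strand): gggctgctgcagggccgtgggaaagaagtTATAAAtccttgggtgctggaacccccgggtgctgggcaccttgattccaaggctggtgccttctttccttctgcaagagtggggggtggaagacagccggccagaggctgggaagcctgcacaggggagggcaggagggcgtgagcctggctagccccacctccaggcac
The upstream stretch is 88.5% G and C and holds GGGCGG 8 times, all on the opposite strand and 2 of them overlapping, and no TATAAA. The downstream stretch is 64% G and C and holds TATAAA 1 time and no GGGCGG. That TATAAA lies near the end of the stretch that is farthest from the start. Neither holds CCAAT or TGANTCA. Over RefSeq promoters of 200 bases, 40.1% hold GGGCGG and 8.59% hold TATAAA, and a match in letters is a description and not a bound site.

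**Figure D5:**
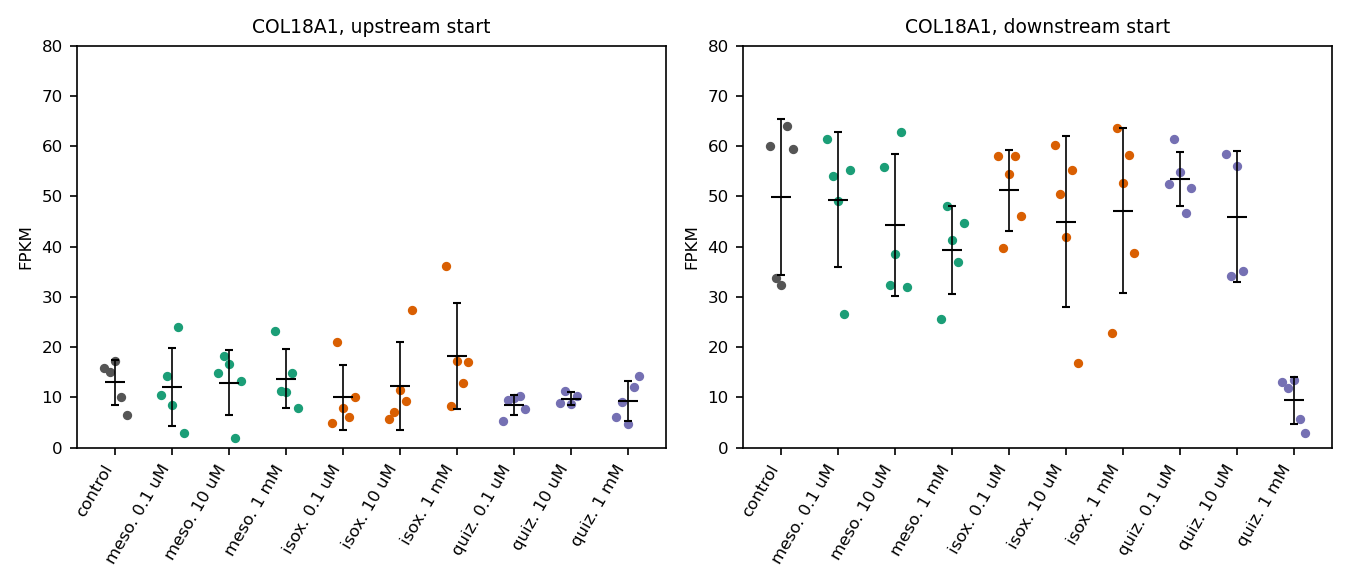
Summed FPKM of COL18A1 transcripts that begin at the upstream start (left) and at the downstream start (right) in each library, by group (abbreviated as in the plot of collagen types), with the mean and SD as a black bar. With quizalofop-p-ethyl at 1 mM the downstream sum lies between 2.99 and 13.5 FPKM, below all control libraries, and the upstream transcript between 4.72 and 14.2 FPKM, overlapping the control range of 6.46 to 17.3 FPKM.

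Cell type markers moved in the same samples. All 9 hepatocyte markers fell with quizalofop-p-ethyl at 1 mM, and their summed FPKM ran between 224 and 5310, against 19246 to 22781 in control. The summed level of 7 biliary markers ran between 85.5 and 185 with quizalofop-p-ethyl, against 635 to 725 in control, and that of 10 stellate and fibroblast markers between 28.96 and 43.9, against 33.2 to 49.8. Of the 7 stellate and fibroblast markers tested, DCN and LUM fell and PDGFRB and NGFR rose. With mesotrione the stellate and fibroblast sum ran between 20.0 and 30.9 and with isoxaflutole between 13.9 and 23.7, both below control. LUM made most of that sum, with 27.9 FPKM in control. Of the 7 tested markers, 1 was called lower with mesotrione and 2 with isoxaflutole, and none was called higher. The biliary sum also lay below control with mesotrione, between 424 and 561, and with isoxaflutole, between 483 and 609. KRT19 made most of that sum, with 534 FPKM in control. Of 5 tested biliary markers, 2 were called lower with mesotrione, and 1 higher and 1 lower with isoxaflutole. SOX9 averaged 15.2 FPKM with isoxaflutole, against 8.72 FPKM in control. The hepatocyte sum lay between 12258 and 20072 with mesotrione, overlapping control, and between 10086 and 18676 with isoxaflutole, below it. ALB (9420 FPKM in control) and SERPINA1 (6428) made most of that sum. With each of these 2 compounds, 1 of the 9 hepatocyte markers was called higher and 1 lower. With isoxaflutole CYP3A4 averaged 174 FPKM, against 2.76 in control, and AHSG 7.19, against 67.4. Over all genes 0.177% were called higher and 0.701% lower with mesotrione, and 1.15% and 1.26% with isoxaflutole. The leukocyte sum overlapped control with all 3 compounds, and the endothelial sum was at most 2.41 FPKM in control and in the 3 groups at 1 mM. Of 3 tested leukocyte markers, 1 was called lower with mesotrione, 2 with quizalofop-p-ethyl and none with isoxaflutole. KDR, the 1 tested endothelial marker, was called lower with quizalofop-p-ethyl only. DCN, a fibroblast proteoglycan that binds collagen fibres, averaged 0.885, 0.564 and 0.229 FPKM with mesotrione, isoxaflutole and quizalofop-p-ethyl, against 4.67 FPKM in control. Their part in the collagen results was not tested.

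No collagen chain was called at 0.1 or 10 uM of any compound with limma. Over the 6 comparisons, with 18 chains tested in each, 6 of the chain tests had an unadjusted p under 0.05. A share of 0.05 of tests passes that level when nothing differs, so this count is not read as a result. Of all genes 0% were called in 5 of these comparisons and 0.00825% with quizalofop-p-ethyl at 10 uM. At that concentration COL8A1 had 12.9, 11, 14.0 and 14.6 FPKM, against 4.72 to 8.81 FPKM in control, with no overlap (log2 fold change 0.93, SE 0.29, adjusted p = 0.849). When unnamed assembled transcripts of the locus were added to COL8A1, it was called there (log2 fold change 0.90, adjusted p = 0.000122). COL4A4 had 2.75, 3.94, 3.92 and 3.19 FPKM at the same concentration, against 1.82 to 2.68 FPKM in control (log2 fold change 0.50, SE 0.12, adjusted p = 0.417). COL8A1 thus averaged 6.48 FPKM in control, 7.89 at 0.1 uM, 13.1 at 10 uM and 0.693 at 1 mM of quizalofop-p-ethyl.

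Compared with each other at 1 mM, isoxaflutole and mesotrione gave no call among the 18 chains with limma, against 0.256% of all genes. Of the 18 chains, 5 had an unadjusted p under 0.05, and the share of all genes under that level is not given. COL3A1 was 3.47 ± 0.746 FPKM with isoxaflutole and 2.62 ± 0.905 FPKM with mesotrione (log2 fold change 0.33, 95% interval 0.01 to 0.65, adjusted p = 0.734). COL4A2 was 42.3 ± 8.13 FPKM with isoxaflutole and 30.8 ± 7.78 FPKM with mesotrione (log2 fold change 0.46, 95% interval 0.15 to 0.76, adjusted p = 0.372). In a limma fit with runs of sample title numbers as a replicate block, COL4A1 and COL4A2 were called higher with isoxaflutole (adjusted p = 0.0319 and 0.0350). Quizalofop-p-ethyl against mesotrione gave 10 lower chains, against 17.6% of all genes, and 1 higher, against 12.6%. Against isoxaflutole it gave 12 lower chains, against 18% of all genes, and 1 higher, against 11.6%, and COL16A1 was the higher one in both. COL3A1 was lower with quizalofop-p-ethyl than with mesotrione (log2 fold change -1.37, SE 0.16, adjusted p = 2.75e-09) and than with isoxaflutole (-1.69, SE 0.16, adjusted p = 9.84e-12). COL4A2 was lower with quizalofop-p-ethyl than with isoxaflutole (-1.31, SE 0.15, adjusted p = 2.01e-09), and COL18A1 likewise (-1.68, SE 0.12, adjusted p = 1.42e-15). Against its own lower concentrations, quizalofop-p-ethyl at 1 mM lowered 14 chains, against 23.2% of all genes, and raised COL16A1, against 14.2%. COL16A1 passed the filter mostly on libraries of quizalofop-p-ethyl at 1 mM, so its passing and its direction are linked in these comparisons too.

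Genes that act on collagen were counted from lists of 84 genes, of which 58 were tested. With mesotrione at 1 mM, 1 of 6 procollagen processing and cross-linking genes and 3 of 5 collagenases and inhibitors fell, against 0.701% of all genes called lower, and none of the folding, basement membrane, receptor or TGF-beta lists held a call. PCOLCE, which enhances cleavage of the procollagen tail, averaged 14.4 ± 3.37 FPKM with mesotrione, 11.9 ± 3.04 with isoxaflutole and 7.40 ± 1.06 with quizalofop-p-ethyl, against 36 ± 4.08 in control, and fell with all 3 (log2 fold changes -1.28, -1.54 and -2.14, adjusted p = 1.04e-08, 2.60e-11 and 1.73e-17). MMP13, a collagenase, averaged 0.240, 0.0867 and 0.0622 FPKM in the same order, against 2.76 FPKM in control, and TIMP1, an inhibitor of such enzymes, 478, 482 and 297 FPKM, against 680 FPKM, each called lower with all 3. MMP2, a gelatinase, fell with mesotrione (7.31 FPKM) and isoxaflutole (7.48 FPKM), against 14.3 FPKM in control, and was 12.9 FPKM with quizalofop-p-ethyl (adjusted p = 0.343).

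With isoxaflutole 1 of 15 folding and modification genes rose, 1 of 7 receptors fell, and 2 of 14 TGF-beta and fibrogenic control genes rose, against 1.15% of all genes called higher and 1.26% called lower. With quizalofop-p-ethyl 4 of 6 processing genes fell, 7 of 11 basement membrane partners fell and 1 rose, 5 of 15 folding genes fell and 3 rose, 4 of 7 receptors fell and 2 rose, 3 of 5 collagenases and inhibitors fell, and 6 of 14 TGF-beta genes fell and 4 rose. Over all genes 19.7% were called lower and 13% higher with quizalofop-p-ethyl, and these lists are described and carry no test against that background. SPARC, a collagen-binding matrix protein, averaged 2.67 ± 0.713 FPKM with quizalofop-p-ethyl and 19.4 ± 5.00 FPKM in control (log2 fold change -2.46, SE 0.30, adjusted p = 6.17e-09). CCN2, a TGF-beta target, averaged 6.33 ± 3.06 FPKM with quizalofop-p-ethyl and 33.7 ± 4.65 FPKM in control (log2 fold change -2.37, SE 0.22, adjusted p = 5.17e-12). NID1, which links laminin to type IV collagen, averaged 5.69 ± 2.68 FPKM with quizalofop-p-ethyl and 21.2 ± 2.44 FPKM in control (log2 fold change -1.84, SE 0.16, adjusted p = 7.75e-13).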

How the data were processed

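RNA of HepaRG cells was sequenced as stranded, ribosome-depleted total RNA with paired reads of 75 bp, per the labels' protocols. GRCh38, HISAT, HISAT2 and StringTie appear, without versions or roles, per the submitters' processing notes. The authors deposited FPKM for 239290 transcripts, 199173 with a gene name. The table as deposited held 24 values just below 0, in 20 of the 50 columns, and these were set to 0. FPKM are relative within a library, and depth is not in the table.

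Transcript FPKM were summed per gene name, with 18349 unnamed transcripts added to the named gene of their locus only as an alternative. The 44 chains cover 347 transcripts. The filter was 1 FPKM or more in 5 or more of 49 libraries. The test was limma 3.58.1 (R 4.3.3) on log2(FPKM + 1), with 1 mean per group, moderated variance with trend and robust settings, Benjamini-Hochberg adjustment within a comparison and a threshold of 0.05. The fit was tested on simulated data. Comparisons at 1 mM and at lower concentrations share the same control libraries. Also run were fits without the filter, with a pseudocount of 0.1, with median-ratio scaling, with a replicate block, with unnamed transcripts added, on all 50 libraries, on the compared groups alone, on single transcripts and with each library left out. Members, gene lists and tests were chosen with earlier results of these data known. Every chain past the threshold in a comparison of 1 mM with control has its values printed by library. Of the other lists up to 4 genes per comparison with the largest change past the threshold are named. 1 gene that this rule picks is not reported here. Promoter sequences are from RefSeq, GRCh38.p14, where 32 of the 44 chains had an entry, and bases inside GENCODE v29 exons were left out.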

Additional observations from a re-analysis of the deposited data

Results flagged for a closer look

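In 12 of the 140 group values examined (14 chains in 10 groups), 1 library lay far from the others of its group, by Dixon's ratio of its gap to the range of the group. Its critical value is set so that chance passes it in about 1 in 20 groups. COL16A1 stood high in replicate 2 of several groups, with 1.21 FPKM with mesotrione at 1 mM (others 0.154 to 0.426), 1.36 FPKM with isoxaflutole at 1 mM (others 0.386 to 0.522) and 0.583 FPKM with quizalofop-p-ethyl at 10 uM (others 0.172 to 0.234). These libraries have nearby numbers in their sample titles (28, 31 and 35). The quizalofop-p-ethyl library at 1 mM with the highest COL16A1 level (2.16 FPKM) has number 34. Whether they share a culture or day is not said in the labels. Mesotrione replicate 1 at 1 mM had 16.5 FPKM of COL4A1 (others 8.25 to 10.3) and 44.4 FPKM of COL4A2 (others 26.2 to 29.8). COL8A1 was 0.0284 FPKM in isoxaflutole replicate 1 at 1 mM (others 2.80 to 3.83), and COL1A1 was 1.07 FPKM in quizalofop-p-ethyl replicate 4 at 1 mM (others 2.26 to 2.52).

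At lower concentrations, COL11A1 was 1.63 FPKM in isoxaflutole replicate 5 at 10 uM (others 2.23 to 2.35) and COL5A1 was 23.1 FPKM in replicate 1 of that group (others 27.7 to 28.6). COL18A1 was 58.0 FPKM in isoxaflutole replicate 5 at 0.1 uM (others 64.5 to 66.8). With quizalofop-p-ethyl at 0.1 uM, COL12A1 was 26.4 FPKM in replicate 4 (others 46.2 to 49.2) and COL3A1 was 14.6 FPKM in replicate 1 (others 20.0 to 21.2).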

How the results depend on the processing

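Of 20 calls at 1 mM against control, 11 were kept under all alternatives run, none changed sign, and 317 of 359 recomputed values stayed past the threshold. All calls of COL3A1 were kept, as were those of COL8A1, COL11A1, COL16A1, COL18A1, COL21A1, COL4A4, COL4A5 and COL4A6 with quizalofop-p-ethyl. COL16A1 did not pass the filter with the compared groups alone, so its call was checked in 17 alternatives, against 18 for the others. It passed the main filter mostly on libraries of quizalofop-p-ethyl at 1 mM, where it is high, so its kept call is no separate support. With all 50 libraries fewer chains were called against control (1 with mesotrione, 1 with isoxaflutole, 9 with quizalofop-p-ethyl), against lower concentrations (1, 1 and 8) and with quizalofop-p-ethyl against mesotrione (7). Fitting the compared groups alone gave 1 chain with mesotrione and 1 with isoxaflutole against control, and 2 with mesotrione against its lower concentrations. Without a filter, 3 chains with mesotrione and 24 with quizalofop-p-ethyl were called against lower concentrations. More than the 18 chains were tested in that fit, including chains that never reached 1 FPKM. The cause of these changes was not tested. The share of all genes called is not given for these fits or for those with a library left out, so their counts describe only the fits. Adding unnamed transcripts gave 1 call at the lower concentrations (COL8A1). The leading COL1A1 transcript rose with isoxaflutole (log2 fold change 0.54, adjusted p = 0.0149), which the chain did not.

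Leaving out each library gave 13 to 14 chains in the test over 10 groups, 2 to 2 with mesotrione, 2 to 5 with isoxaflutole and 12 to 15 with quizalofop-p-ethyl against control, 0 to 0 at lower concentrations and for isoxaflutole against mesotrione, 10 to 13 and 12 to 14 for quizalofop-p-ethyl against mesotrione and isoxaflutole, and 3 to 5, 4 to 6 and 14 to 16 against lower concentrations. Numbers in the sample titles form 5 runs, each with 1 library of every group, and the labels do not say that a run shares a culture or day. Of 216 pairs within a run 13 correlated over 0.1 (median 0.02). Of the 864 pairs of different runs also 13 did, which is a smaller share (median -0.005). The samples were not treated as paired in the main fits. Although most other libraries lie outside a library's own run, 25 of 49 libraries, not all, were closest to their own run. The data thus point to some shared variation within runs, which the main fits leave in the spread. With these runs as a replicate block, COL4A1 (adjusted p = 0.0319) and COL4A2 (adjusted p = 0.0350) were called higher with isoxaflutole than with mesotrione, 2 calls against 0. FPKM hold no counts, so precision at low levels rests on the spread between libraries.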
